A study of Rattus norvegicus with 9 samples.

Results

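The genes described here are the 8 rat genes Fos, Fosb, Fosl1, Fosl2, Jun, Junb, Jund and Atf3, which encode subunits of the transcription factor AP-1. They were looked up by gene symbol among the 18733 genes of the tables, and all 8 were found and passed the low-count filter that left 14840 genes. RNA came from 50 mg of hippocampus from each of 9 male rats, 3 in each of 3 groups, with 1 library per rat. The taVNS rats had middle cerebral artery occlusion (MCAO, a surgical model of ischaemic stroke), developed cognitive impairment and then received 14 days of transcutaneous auricular vagus nerve stimulation, in which current is passed through the skin of the ear to reach a branch of the vagus. The PSCI rats (post-stroke cognitive impairment) had the same occlusion and impairment and were fed routinely for 2 weeks, and the control rats were fed routinely. Occluded rats entered the study when their alternation rate and cognitive index were both under a limit stated as 20% of the control mean, and were then assigned to PSCI or taVNS at random. The sources used here give no age, no strain, no hemisphere and no sham surgery or sham stimulation, so occlusion and selection for impairment cannot be told apart in PSCI against control. Likewise, the current and the handling that came with the sessions cannot be told apart in either comparison of taVNS. Against control, the taVNS rats also differed by occlusion and by selection for impairment, which cannot be told apart from the sessions there.

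AP-1 is a dimer of basic leucine zipper proteins. Jun proteins pair with each other or with Fos proteins, while Fos proteins need a Jun partner, and the dimer binds DNA at the sequence TGACTCA. Fos, Fosb and Junb are immediate early genes, whose transcription starts within minutes of neuronal firing, and Atf3 is a related stress-induced protein that pairs with Jun proteins and is known as a marker of injured neurons. In the hippocampus Fos is widely used to mark recently active neurons, and Fosl1, Fosl2 and Jund are slower or steadier members of the family.

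The libraries held 13747389 to 15415694 counts each. A floor of 3 counts corresponds to 0.195 to 0.218 CPM (counts scaled to a common library size, after TMM normalisation). Of 8 markers of hippocampal neurons 7 were present in every library, Neurod6 at 46.6 to 225 CPM and Prox1 at 7.07 to 47.6 CPM among them, while Spink8 had 0 to 5 counts per library. PSCI replicate 2 stood apart from the rest. It had the lowest value of 5 of these 7 markers, though Fibcd1 (209 CPM) and Wfs1 (90.3 CPM) were within the range of the others. Its 7 measured hippocampal markers summed to 718 CPM, against 1000 to 1652 CPM in the other 8 libraries. Its reactive astrocyte markers summed to 9255 CPM, the highest of the 9, and its 9 markers of meninges and fibroblasts to 481 CPM. The meningeal sum was also high in taVNS replicate 3 (370 CPM) and lay between 54.3 and 213 CPM in the other 7. The 3 red blood cell markers summed to 103 to 263 CPM in taVNS, 21.1 to 65.5 CPM in PSCI and 72.0 to 79.0 CPM in control libraries. Of these 3, edgeR called 2 and DESeq2 3 higher in taVNS than in PSCI, and their part in the differences of the members was not tested. Alas2 among them was at 0 in PSCI replicate 2. In bulk tissue, fewer cells of a type and less RNA per cell cannot be told apart.

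Fos was lowest on average in the stimulated rats. It had 4.13, 4.2 and 1.30 CPM in the taVNS libraries, 4.02, 19.2 and 10.6 CPM in the PSCI libraries, and 18.4, 11 and 12.5 CPM in the control libraries, from 19 to 302 counts per library. All 3 taVNS values lay below all 3 control values, while PSCI replicate 1 sat with the taVNS libraries and PSCI replicates 2 and 3 within or next to the control range. The fitted log2 fold change of taVNS to control was -2.12 ± 0.58 (SE), a level 4.36-fold lower, with an unadjusted p of 0.00496 that did not survive adjustment over all genes (edgeR's quasi-likelihood test with Benjamini-Hochberg adjustment, adjusted p = 1; DESeq2 gave 0.0997). For taVNS against PSCI it was -1.81 ± 0.58 (adjusted p = 0.108, 95% interval -3.11 to -0.52). This comparison turned on the PSCI libraries: without PSCI replicate 1 it was -2.21 and passed the threshold (adjusted p = 0.017), and without PSCI replicate 2 it was -1.18 (adjusted p = 0.219). DESeq2 called it (adjusted p = 0.0174). PSCI against control gave -0.31 ± 0.54 (adjusted p = 0.779), with an interval of -1.52 to 0.90. Without PSCI replicate 1 it was 0.09 (adjusted p = 0.919), without PSCI replicate 2 it was -0.94 (adjusted p = 0.291), and without both PSCI replicate 2 and taVNS replicate 3 it was -0.96 (adjusted p = 0.17). The same omission of both libraries moved taVNS against PSCI to -0.80 (adjusted p = 0.395).

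Fosb, whose truncated protein form builds up in neurons under repeated stimulation, did not follow Fos in the PSCI rats. Its levels were 4.41, 5.88 and 4.92 CPM in the taVNS libraries, 2.39, 2.42 and 14.4 CPM in the PSCI libraries, and 13.5, 10.6 and 11.8 CPM in the control libraries. The taVNS values lay in a narrow band below all controls. Of the PSCI libraries, replicates 1 and 2 were below every taVNS value, and replicate 3 was above every control value. In replicate 2 Fos was thus the highest of all 9 libraries while Fosb was among the lowest. The log2 fold change was -1.24 ± 0.61 for taVNS against control (unadjusted p = 0.0715, adjusted p = 1) and -0.90 ± 0.60 for PSCI against control (adjusted p = 0.394). Without PSCI replicate 3 the value for PSCI against control was -2.31 and passed the threshold (adjusted p = 0.0022), whereas it was -0.52 without PSCI replicate 1 (adjusted p = 0.593) and -0.51 without PSCI replicate 2 (adjusted p = 0.614). For taVNS against PSCI even the direction depended on that library, with -0.33 ± 0.61 in all libraries (adjusted p = 0.808), 1.07 without PSCI replicate 3 (adjusted p = 0.0476) and -0.72 without PSCI replicate 1 or 2 (adjusted p = 0.47 and 0.477).

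Fosl1, also called Fra-1, encodes a Fos protein without the transactivation domain of Fos and was the only member called by edgeR in any of the 3 comparisons. It had 2.87, 4.06 and 2.25 CPM in the taVNS libraries, 4.43, 5.99 and 5.94 CPM in the PSCI libraries, and 2.55, 3.05 and 2.79 CPM in the control libraries. Every PSCI value was above every value of both other groups, although by little where PSCI replicate 1 met taVNS replicate 2. Fosl1 rose 1.95-fold in PSCI against control (log2 fold change 0.96 ± 0.26, adjusted p = 0.0471). The call sat at the threshold: over 20 alternatives its log2 fold change stayed between 0.74 and 1.09, while adjusted p ran from 0.0178 to 0.137 and missed the threshold in 11. Among these were the fits without any 1 control library (0.126, 0.104 and 0.137), without PSCI replicate 2 (0.0908) or 3 (0.137), and without taVNS replicate 1 (0.0733). In taVNS against PSCI it was 1.78-fold lower (log2 fold change -0.83 ± 0.26, adjusted p = 0.0982), and in taVNS against control the difference was 0.13 ± 0.26 (95% interval -0.46 to 0.72).

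Fosl2, or Fra-2, was the most abundant Fos family gene. It had 89.3, 66.9 and 114 CPM in the taVNS libraries, 43.8, 92.3 and 98.4 CPM in the PSCI libraries, and 76.3, 102 and 113 CPM in the control libraries. The groups overlapped throughout, and PSCI replicate 1 was the lowest library. The log2 fold change was -0.31 ± 0.30 for PSCI against control, 0.20 ± 0.30 for taVNS against PSCI and -0.11 ± 0.30 for taVNS against control, with 95% intervals of -1.0 to 0.37, -0.48 to 0.89 and -0.79 to 0.57.

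**Figure D1:**
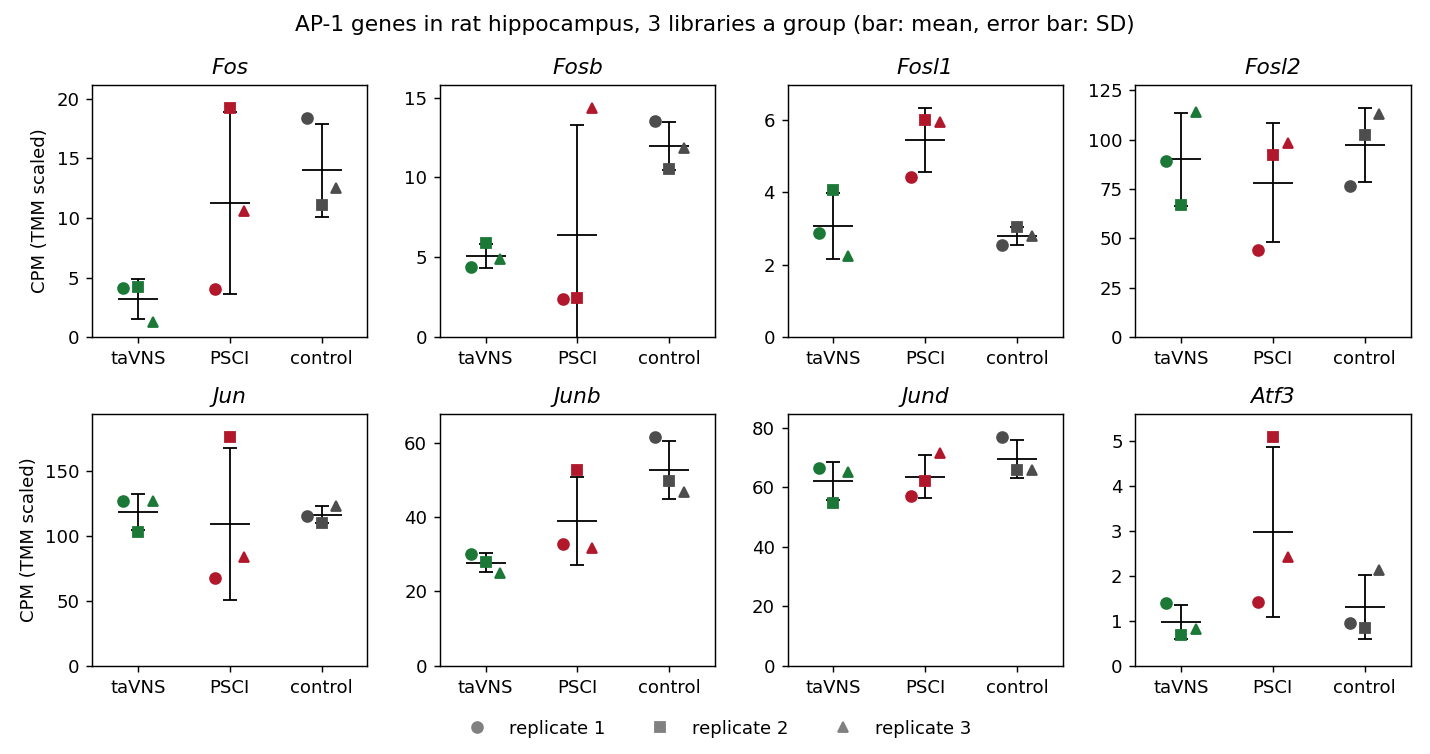
Level of each AP-1 gene (y axis, CPM after TMM scaling, each panel with its own scale from 0) in the taVNS, PSCI and control groups. Points are libraries, with the shape giving the replicate number, horizontal bars the means and error bars the SD of 3 libraries; the lower error bar of Fosb in PSCI runs below 0 and is cut there. The taVNS points of Fos, Fosb and Junb lie under all control points, and the PSCI points of Fos, Fosb, Jun and Atf3 are spread wide.

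Among the Jun genes, Junb alone had taVNS libraries below those of both other groups. Its protein binds DNA as other Jun proteins do but activates many AP-1 sites less strongly than Jun. It had 30.2, 27.8 and 25.1 CPM in the taVNS libraries, 32.6, 52.7 and 31.7 CPM in the PSCI libraries, and 61.6, 49.6 and 46.8 CPM in the control libraries. The taVNS libraries were below all PSCI and all control libraries, and PSCI replicate 2 alone of its group reached the control range. In taVNS against control Junb was 1.90-fold lower, with a log2 fold change of -0.93 ± 0.20 (95% interval -1.38 to -0.47). It ranked number 10 of 14840 by unadjusted p (0.00129), yet its adjusted p was 1; DESeq2 called it at 0.0414, and its log2 fold change stayed between -1.0 and -0.80 over 20 alternatives. In taVNS against PSCI it was -0.49 ± 0.20 (adjusted p = 0.203), -0.22 without PSCI replicate 2 (adjusted p = 0.417) and -0.14 without both PSCI replicate 2 and taVNS replicate 3 (adjusted p = 0.699). In PSCI against control it was -0.43 ± 0.20 (adjusted p = 0.217), and without PSCI replicate 2 it was -0.71 and passed the threshold (adjusted p = 0.0204).

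Jun, the founding partner of Fos, had 126, 103 and 126 CPM in the taVNS libraries, 67.6, 176 and 83.6 CPM in the PSCI libraries, and 115, 110 and 123 CPM in the control libraries. The taVNS and control libraries overlapped, whereas the PSCI libraries lay on both sides of all others, replicate 2 above and replicates 1 and 3 below. The fitted difference of PSCI to control was -0.09 ± 0.30 (adjusted p = 0.893). Without PSCI replicate 2 it was -0.61 and passed the threshold (adjusted p = 0.0232). For taVNS against PSCI it was 0.12 ± 0.30 (adjusted p = 0.867), and 0.65 without PSCI replicate 2 (adjusted p = 0.027). In taVNS against control Jun differed by 0.03 ± 0.30 (95% interval -0.65 to 0.70).

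Jund, the Jun gene that is broadly expressed without stimulation, had the narrowest intervals of the 8 genes. It had 66.4, 54.6 and 65.0 CPM in the taVNS libraries, 57.1, 62.1 and 71.4 CPM in the PSCI libraries, and 76.9, 65.7 and 65.8 CPM in the control libraries. All 3 comparisons lay between -0.16 and -0.04 (log2) with 95% intervals that together reached from -0.43 to 0.23. The SD of its log2 CPM within a group was 0.154 in taVNS, 0.162 in PSCI and 0.131 in control.

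Atf3 was the least abundant gene, with 10 to 80 counts per library. It had 1.40, 0.699 and 0.82 CPM in the taVNS libraries, 1.43, 5.10 and 2.41 CPM in the PSCI libraries, and 0.966, 0.85 and 2.13 CPM in the control libraries. In CPM the PSCI values exceeded all taVNS values, by the smallest step between PSCI replicate 1 (21 counts) and taVNS replicate 1 (20 counts), and overlapped with control replicate 3. In RPKM PSCI replicate 1 and taVNS replicate 1 tied at 0.88. The log2 fold change was 1.18 ± 0.54 for PSCI against control (adjusted p = 0.21) and -1.61 ± 0.55 for taVNS against PSCI (adjusted p = 0.136). The values rested on PSCI replicate 2: without it they were 0.56 (adjusted p = 0.541) and -0.98 (adjusted p = 0.295). Without PSCI replicate 1 taVNS against PSCI passed the threshold (-1.94, adjusted p = 0.0463).

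Promoter sequences, from 250 bases before to 50 after the annotated start, were taken from RefSeq (build GRCr8, not the build of the counts) for the members matched there, namely Fosb, Fosl1, Fosl2, Junb and Jund (5 of 8). They were searched on both strands for the AP-1 site TGACTCA, the cyclic AMP response element TGACGTCA, its 5-base core TGACG, the box TATAAA and the serum response element (CArG box), through which Fos is known to be induced. They occur in 4.63%, 1.83%, 21.2%, 14.2% and 1.64% of the 33469 rat promoters given there, in that order. The sequences of 4 members are shown: Fosl1, the called gene, Junb and Fosb, which lay below control in all stimulated rats, and Jund, whose groups differed little. Capitals mark the element, its core and TATAAA on either strand.
Fosl1, chr1:212183635-212183934, plus strand: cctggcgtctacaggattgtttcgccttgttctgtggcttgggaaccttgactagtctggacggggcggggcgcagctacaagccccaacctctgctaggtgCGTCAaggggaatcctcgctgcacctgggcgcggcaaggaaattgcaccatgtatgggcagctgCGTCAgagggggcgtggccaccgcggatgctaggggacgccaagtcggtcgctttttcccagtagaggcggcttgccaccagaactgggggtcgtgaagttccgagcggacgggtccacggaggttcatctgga
Junb, chr19:40080876-40081175, plus strand: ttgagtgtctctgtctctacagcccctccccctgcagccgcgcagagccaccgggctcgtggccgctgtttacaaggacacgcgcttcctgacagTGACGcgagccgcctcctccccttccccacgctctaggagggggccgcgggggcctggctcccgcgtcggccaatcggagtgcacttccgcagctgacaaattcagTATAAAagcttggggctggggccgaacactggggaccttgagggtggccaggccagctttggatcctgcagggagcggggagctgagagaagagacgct
Fosb, chr1:88089135-88089434, minus strand: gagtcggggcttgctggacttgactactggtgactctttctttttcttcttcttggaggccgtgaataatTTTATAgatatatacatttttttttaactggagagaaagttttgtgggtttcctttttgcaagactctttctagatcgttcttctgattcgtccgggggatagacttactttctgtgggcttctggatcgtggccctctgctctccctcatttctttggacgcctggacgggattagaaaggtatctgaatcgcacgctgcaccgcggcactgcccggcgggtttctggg
Jund, chr16:18769722-18770021, minus strand: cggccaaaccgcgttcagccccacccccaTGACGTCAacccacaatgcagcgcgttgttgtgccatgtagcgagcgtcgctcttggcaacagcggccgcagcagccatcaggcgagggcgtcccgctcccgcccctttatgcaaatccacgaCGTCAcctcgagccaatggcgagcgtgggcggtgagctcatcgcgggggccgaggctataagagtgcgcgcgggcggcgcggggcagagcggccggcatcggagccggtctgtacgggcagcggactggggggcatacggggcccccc
The AP-1 site and the CArG box occurred in 0 of the 5 windows. Jund held the full element at position 30 of its window and the core again at position 153. Fosl1 held the core 2 times, at positions 103 and 167, and Junb 1 time, at position 96, beside a TATAAA box at position 202. Fosb held TATAAA at position 71 and the core at none (0). Such matches describe the letters of these windows and show no binding.

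Scaled for length, Jun, Junb and Jund made up most of the summed level of the 8 genes, 80.5% to 82.0% in taVNS libraries, 72.4% to 83.5% in PSCI libraries and 76.0% to 79.5% in control libraries. In taVNS libraries Jund averaged 44.3 ± 5.87, Jun 42.3 ± 6.10, Junb 18.4 ± 1.83, Fosl2 16.9 ± 4.64, Fos 2.43 ± 1.24, Fosl1 2.19 ± 0.589, Fosb 2.14 ± 0.448 and Atf3 0.617 ± 0.235 RPKM (SD, n = 3). In PSCI libraries the means were 46.0 ± 5.20 for Jund, 39.8 ± 22.8 for Jun, 26.5 ± 9.07 for Junb, 15.3 ± 5.39 for Fosl2, 8.86 ± 6.27 for Fos, 4.01 ± 0.731 for Fosl1, 2.80 ± 3.18 for Fosb and 1.91 ± 1.29 RPKM for Atf3. In control libraries they were 48.5 ± 4.02 for Jund, 40.4 ± 2.49 for Jun, 34.2 ± 4.73 for Junb, 17.6 ± 4.38 for Fosl2, 10.4 ± 2.81 for Fos, 5.23 ± 0.654 for Fosb, 1.97 ± 0.19 for Fosl1 and 0.80 ± 0.434 RPKM for Atf3. The first 5 places were the same in all groups. Fosl1 stood above Fosb in taVNS and PSCI and below it in control, but only in control did the ranges of these neighbours not overlap. In taVNS libraries Fos, Fosl1 and Fosb could not be ordered beyond their spread, nor could Jund and Jun, or Junb and Fosl2. In PSCI libraries Junb and Fosl2 were the only neighbours without overlap.

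The Fos genes together held 17.3% to 19.1% of the summed RPKM of all 8 genes in taVNS libraries, 15.7% to 26.5% in PSCI libraries and 20.2% to 23.2% in control libraries. Fos itself held 0.733% to 2.75% in taVNS, 2.96% to 8.04% in PSCI and 5.43% to 8.17% in control. Jun held 31.5% to 33.6% in taVNS, 21.2% to 34.2% in PSCI and 23.8% to 27.3% in control. Relative to Fosl2, the RPKM of Fos was 0.0463 to 0.25 in taVNS, 0.334 to 0.836 in PSCI and 0.406 to 1.09 in control libraries. The taVNS range lay below those of both other groups. In PSCI replicate 1, the closest to it, Fos itself (3.04 RPKM) was within the taVNS range of 1 to 3.21 RPKM. That library had the lowest Fosl2 (9.11 RPKM) and the lowest sum over the 8 genes (103 RPKM). Its ratio and its Fos share thus exceeded those of taVNS although its Fos did not stand above them.

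**Figure D2:**
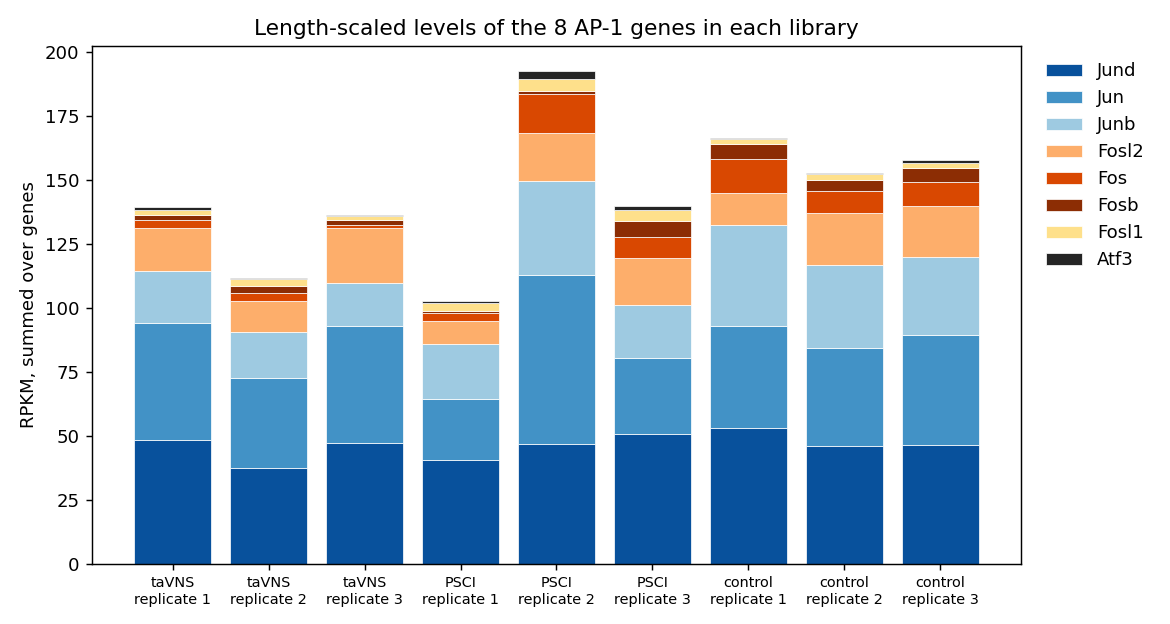
Summed RPKM of the 8 AP-1 genes (y axis, read density scaled for gene length and depth) in each of 9 libraries (x axis, taVNS, PSCI, control), with 1 colour per gene. The sum ran from 103 in PSCI replicate 1 to 193 in PSCI replicate 2, and the Jun genes in blue form the larger part of every bar.

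The members were called about as rarely as genes in general. In PSCI against control 9.85% of 14840 genes were called, 7.71% higher and 2.14% lower, and of the members 1 of 8 was called, Fosl1, which was higher. Its 3 libraries lay above control, as did those of 16.2% of all genes, and the other 7 members overlapped. The median log2 fold change was -0.22 over the members and -3.68e-05 over all genes. Between taVNS and PSCI 5.75% of all genes were called, 4.91% lower, and 0 of the 8 members. Fosl1, Junb and Atf3 (3 of 8) lay below PSCI in all libraries by CPM, as did 15.2% of all genes, though Atf3 tied in RPKM. An unadjusted p under 0.05 was found for 4 members, and for 3132 of all 14840 genes. DESeq2 called 1 member, Fos, and limma-voom 0. The median was -0.41 over the members and -0.00151 over all genes. In taVNS against control 0% of genes were called by edgeR (0 of 14840, with 557 at an unadjusted p under 0.05); DESeq2 called 10 genes, Junb among them, limma-voom 0 and limma on log2 RPKM 1. Fos, Fosb and Junb (3 of 8) lay below control in all libraries, against 5.4% of all genes, and 2 members, Fos and Junb, had an unadjusted p under 0.05. The median was -0.30 over the members and 0.00226 over all genes. The comparisons share libraries, so their values are not independent of each other.

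**Figure D3:**
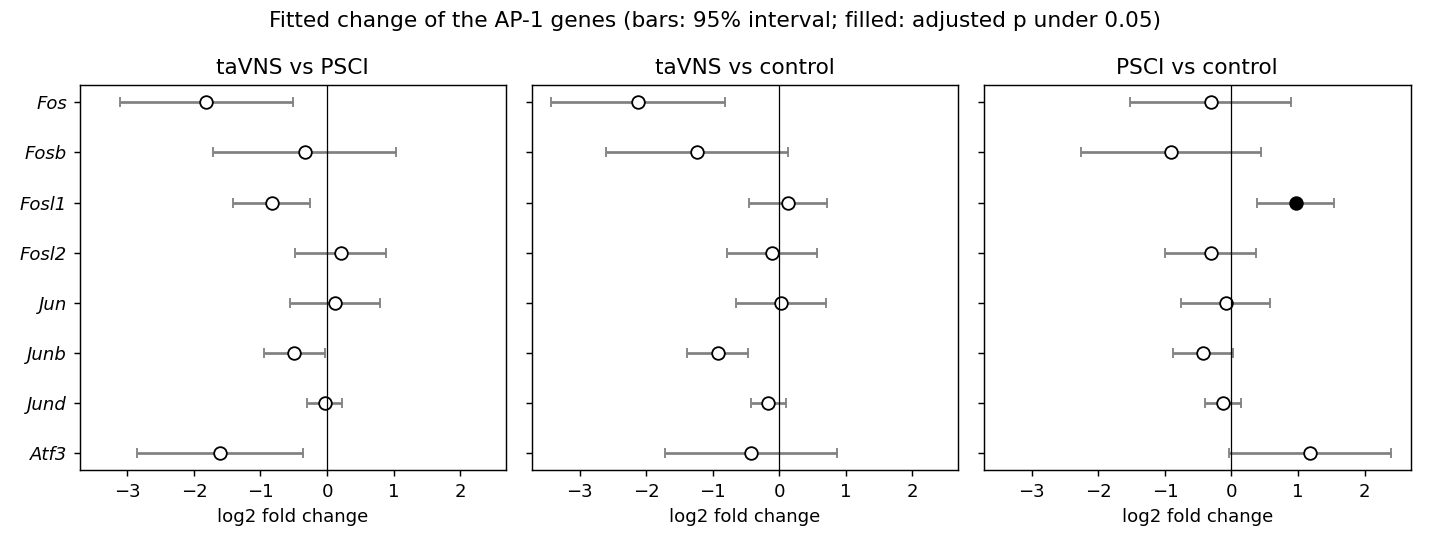
Fitted log2 fold change (x axis) of each AP-1 gene (y axis) in taVNS against PSCI, taVNS against control and PSCI against control, with bars for the 95% interval of the edgeR fit. Only Fosl1 in PSCI against control is filled, the mark of an adjusted p under 0.05; Fos and Junb lie left of 0 with their whole interval in both taVNS comparisons.

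The spread between PSCI rats was widest for 4 members, with Fosl2 next at an SD of log2 CPM of 0.648 (percentile 88.0). The SD of log2 CPM in PSCI was 1.45 for Fosb, 1.12 for Fos, 0.875 for Atf3 and 0.724 for Jun, against a median of 0.217 over all tested genes, which placed them at percentiles 98.4, 96.7, 93.7 and 90.4 of that group. In taVNS the same genes had SDs of 0.203, 0.914, 0.462 and 0.173, at percentiles 63.8, 97.6, 89.4 and 56.8. In control the SDs were 0.177, 0.382, 0.651 and 0.0825, at percentiles 53.1, 84.9, 95.4 and 18.4. Fos was thus placed at least as high in taVNS, and Atf3 in control, as in PSCI. Each PSCI library had its own profile. Replicate 1 had the lowest value of all 9 libraries for Fosl2, Jun and Fosb. Replicate 2 was highest of all for Fos, Jun, Atf3 and Fosl1 and close to the lowest for Fosb. Replicate 3 was highest for Fosb. Reactive astrocyte markers summed to 4680, 9255 and 7543 CPM in PSCI replicates 1, 2 and 3, and markers of microglia and macrophages to 536, 840 and 646 CPM. Neuronal markers summed to 6751, 5298 and 6717 CPM in these replicates, and to 6864 to 7954 CPM in taVNS and 7459 to 7770.2 CPM in control. Their part in the values of the members was not tested. The meningeal sum was high in both PSCI replicate 2 and taVNS replicate 3, of which the first had the highest and the second the lowest Fos.

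Other immediate early genes, fixed as a list of 20, give the setting of Fos, Fosb and Junb. In PSCI against control 5 of 20 fell, namely Npas4, Egr2, Nr4a2, Nr4a3 and Egr1, and none rose (0), at a median log2 fold change of -0.69. Of all 14840 genes 2.14% were called lower and 7.71% higher in that comparison. In taVNS against PSCI 5.75% of all genes were called, and in taVNS against control 0%. Npas4, a neuron-specific activity factor, was at 0.436 ± 0.0865 CPM in PSCI and 7.07 ± 4.01 CPM in control, and Egr2, a zinc finger factor, at 1.08 ± 0.720 CPM in PSCI and 9.14 ± 0.891 CPM in control (adjusted p = 0.0079 and 0.00799). In the PSCI libraries Npas4 had 5, 8 and 7 counts and Egr2 4, 26 and 20, the lowest of them close to the floor of 3 counts. In control libraries Npas4 had 42 to 161 counts. Npas4, Egr2 and Nr4a2, an orphan nuclear receptor, passed the threshold in all 20 alternatives, Nr4a3 missed it in 6 and Egr1 in 11. For taVNS against PSCI edgeR called 0 of 20 (4 at an unadjusted p under 0.05; DESeq2 called 1, limma-voom 0), and in taVNS against control also 0 (6 at an unadjusted p under 0.05; DESeq2 called 2, limma-voom 0), with medians of 0.21 and -0.43. In PSCI replicate 2, where Fos was at 19.2 CPM and Jun at 176 CPM, the activity-induced genes Egr1, Nr4a1 and Arc were at 7.14, 6.76 and 9.88 CPM, their lowest values in the 9 libraries, while the early genes Klf6 and Ier3 were at 84.7 and 7.46 CPM, their highest. In PSCI replicate 3, where Fosb was at 14.4 CPM, Egr3 (117 CPM) and Nptx2 (129 CPM) were also at their highest. These early genes were picked after their values were seen, and each statement describes 1 library.

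**Figure D4:**
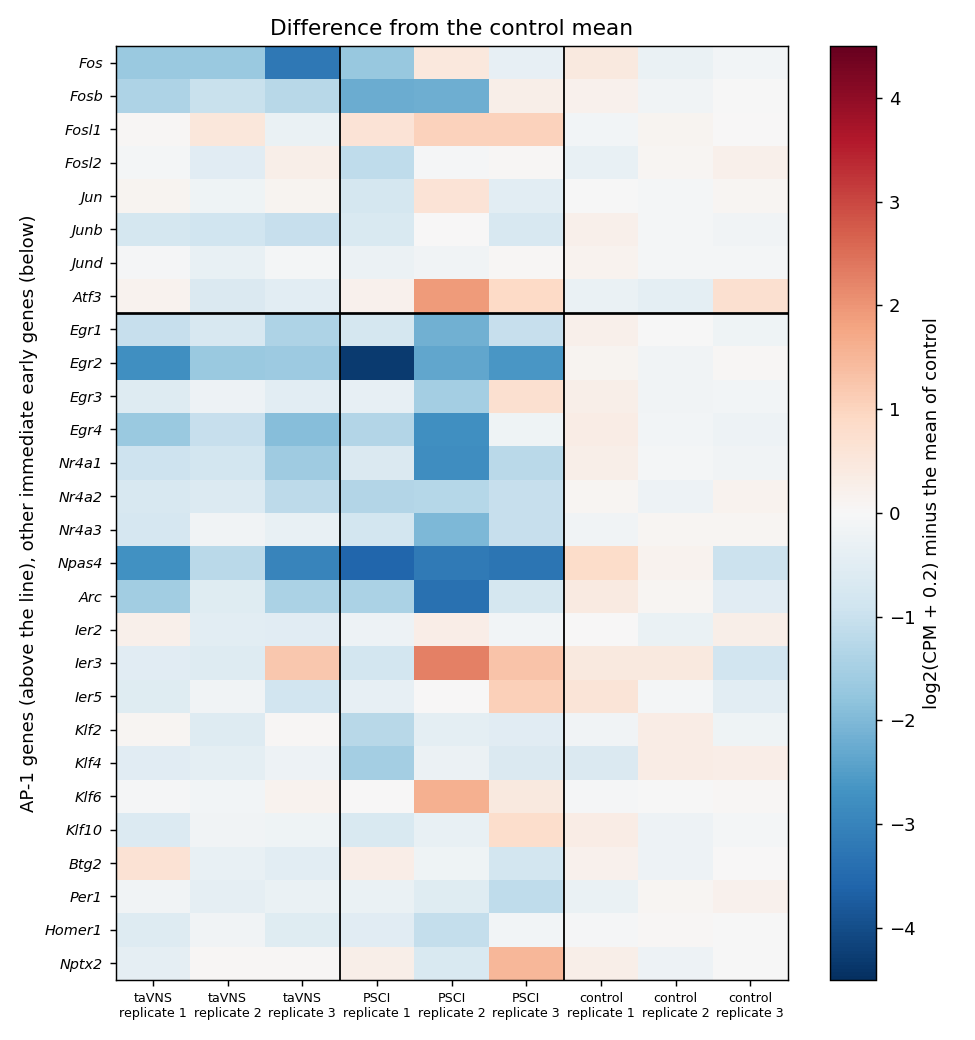
Log2(CPM + 0.2) minus the control mean (colour, red above and blue below control) of the 8 AP-1 genes and 20 other immediate early genes (rows) in the 9 libraries (columns, taVNS, PSCI, control). Npas4, Egr2 and Egr1 are blue in all taVNS and PSCI libraries, whereas Fos is blue in the taVNS libraries and in PSCI replicate 1 and red in PSCI replicate 2.

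The genes whose pattern over the 9 libraries was nearest to a member were found by the root mean square difference of log2 CPM, each gene centred on its own mean, among 13465 genes of at least 1 CPM. For Atf3 they were Tnfrsf12a, the receptor of the cytokine TWEAK (0.227), Diaph3, a formin that nucleates actin (0.270), and Togaram2 (0.271), against a value of 0.805 for Atf3 itself around its mean. Tnfrsf12a was at 1.82, 1.33 and 1.09 CPM in taVNS, 2.04, 7.33 and 3.92 CPM in PSCI and 1.45, 1.49 and 2.13 CPM in control libraries, with the same peak in PSCI replicate 2 as Atf3. For Fosb they were Crh, the corticotropin-releasing hormone (0.417), Egr4 (0.448) and Gpr3 (0.519), against 0.934. For Jun they were Nipsnap3b, Dpysl4 and Osbpl10 (0.132 to 0.140, against 0.369), and for Junb Znhit1, Prrg1 and Fastkd5 (0.242 to 0.255, against 0.437). Fos had no near neighbour: Gadd45b and Sypl2, among the closest, differed from it by 0.821 and 0.824, against 1.18 for Fos around its own mean.

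Genes around AP-1 were described through 6 further lists. Their counts stand beside these shares of all 14840 genes. In PSCI against control 7.71% were called higher and 2.14% lower. In taVNS against PSCI 0.842% were called higher and 4.91% lower, and in taVNS against control 0% were called. Of other basic leucine zipper genes 17 of 20 were tested. In PSCI against control 3 of them rose and none fell (0). Among these, Maff, a small Maf protein, rose 4.30-fold to 3.19 ± 0.446 CPM against 0.736 ± 0.128 CPM in control (adjusted p = 0.00407), and Cebpd, an inflammation-induced factor, rose 3.97-fold (adjusted p = 0.0104). Maff and Cebpd fell in taVNS against PSCI (2 of 17), Maff to 0.441 ± 0.111 CPM in taVNS against 3.19 ± 0.446 CPM in PSCI (adjusted p = 0.00247). Maff kept both calls in all 20 alternatives, and Cebpd lost 1 call without control replicate 2 (adjusted p = 0.0525) and 1 without taVNS replicate 1 (0.0622).

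Of 21 tested kinases that lead to Fos and Jun edgeR called 1 higher in PSCI against control, Map3k1, a kinase upstream of JNK (adjusted p = 0.0361, lost in 12 of 20 alternatives). In that comparison 9 of the 21 had an unadjusted p under 0.05 with edgeR, and DESeq2 called 3 and limma-voom 0. In the other comparisons edgeR, DESeq2 and limma-voom called 0. There 3 had an unadjusted p under 0.05 with edgeR in taVNS against PSCI and 1 in taVNS against control. Of 10 dual-specificity phosphatases, which switch these kinases off, edgeR, DESeq2 and limma-voom called 0 in each of the 3 comparisons, with 1 at an unadjusted p under 0.05 in PSCI against control and 0 in the others. Of 13 factors known to act at the Fos and Junb promoters, Elk3, a partner of serum response factor, and Stat3, the factor of interleukin 6 signalling, rose in PSCI against control (2 of 13). Elk3 lost its call without control replicate 2 or 3 or PSCI replicate 3 (adjusted p up to 0.0664, against 0.0155 with all libraries). Stat3 was at 135 ± 58.7 CPM in PSCI and 54.5 ± 4.26 CPM in control (adjusted p = 0.0147, up to 0.0629 without a control library), and it fell to 52.2 ± 4.06 CPM in taVNS, against that PSCI level (adjusted p = 0.0183, up to 0.0882 over the alternatives, lost without any 1 taVNS library).

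Of 21 genes with textbook AP-1 sites 15 were tested, of which 7 rose in PSCI against control and none fell (0), with a median log2 fold change of 1.34. The 6 with the smallest p were Timp1, Hmox1, Ccl2, Cd44, Tgfb1 and Plau, whose calls were lost in 1, 3, 4, 5, 6 and 14 of 20 alternatives. In taVNS against PSCI 5 of 15 fell and none rose (0), with a median of -1.31. They were Ccl2, Timp1, Hmox1, Ccnd1 and Cd44, whose calls were lost in 6, 4, 13, 15 and 14 of 20 alternatives. These counts depended on the tool, since limma-voom called 1 and 0 genes of the list in these comparisons and DESeq2 7 and 6. In taVNS against control edgeR, DESeq2 and limma-voom called 0, with 0 at an unadjusted p under 0.05 and a median of -0.01. Timp1, an inhibitor of metalloproteinases, was at 3.67 ± 3.27 CPM in taVNS, 65.3 ± 57.2 CPM in PSCI and 1.40 ± 0.207 CPM in control (adjusted p = 0.0168 for taVNS against PSCI and 0.00591 for PSCI against control). Its call in taVNS against PSCI was lost without taVNS replicate 1 or 2 (up to 0.0834). Hmox1, the haem-degrading enzyme, was at 6.43 ± 0.314 CPM in taVNS, 26.3 ± 15 CPM in PSCI and 4.83 ± 1.26 CPM in control (adjusted p = 0.0312 and 0.0112). These genes moved in the libraries with high sums of reactive astrocyte and microglial markers, and the list shares Cd44 with the astrocyte markers. The reactive astrocyte sum was 4680 to 9255 CPM in PSCI, 914 to 1455 CPM in taVNS and 672 to 1252 CPM in control libraries. The sum of 10 microglia and macrophage markers was 536 to 840, 291 to 368 and 198 to 273 CPM, in that order. Tmem119 among these went the other way, at 11.7 to 14.9 CPM in PSCI, below every taVNS and control library. In taVNS against PSCI edgeR called 5 of the 10 lower and 1 higher. The part of these markers was not tested. Of the injury list, followed together with Atf3, 10 of 12 genes were tested, and 1 rose in PSCI against control, Gadd45a, a growth arrest gene, to 16.3 ± 4.8 CPM against 5.18 ± 1.95 CPM in control (adjusted p = 0.0114, lost without control replicate 2 or 3, up to 0.0587). In that comparison 7 of the 10 had an unadjusted p under 0.05 with edgeR, and DESeq2 called 4 and limma-voom 1. In taVNS against PSCI Gadd45a and the cell cycle inhibitor Cdkn1a fell and Flrt3 rose (3 of 10). Gadd45a lost this call without any 1 taVNS library (up to 0.0709), Cdkn1a without taVNS replicate 1 or 2 (up to 0.0732), and Flrt3 in 16 of 20 alternatives.

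The log2 ratio of group means of the members differed between counts and deposited RPKM by at most 0.08, for Fosb in taVNS against control (-1.21 in counts and -1.29 in RPKM).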

How the data were processed

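The authors deposited, for each of 9 libraries, a table of estimated counts per gene, not whole for every gene, and a matching table of RPKM values. The labels' protocols describe oligo dT selection and a dUTP second strand; the extraction text speaks of mice where the samples are rats. The submitters' processing notes name HISAT2 2.0.4, RSEM 1.2.8 and mRatBN7.2; the annotation and filters are not given in the sources used here.

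The deposited estimated counts were rounded and tested over all 9 libraries in 1 fit with edgeR 4.0.16 (quasi-likelihood, TMM scaling, filterByExpr, R 4.3.3), with Benjamini-Hochberg adjustment over all 14840 genes and a threshold of 0.05; SE is the log2 fold change over the root of F. DESeq2 1.42.0, limma 3.58.1 (voom, and log2 of RPKM plus 0.1 or 1), other scalings and omitted libraries were alternatives. Lists name up to 6 called genes by p; nearest genes are the 3 closest. Some genes that these rules select are not reported here. The members and lists were chosen with earlier results of these data known. Labels do not say that libraries are separate cohorts or litters, so p-values measure the spread between these rats. Genes were taken by the symbols in the tables; of 18733 gene IDs 18486 were found in the RefSeq table, 16803 with the same symbol. Floors cover counting error only.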

Additional observations from a re-analysis of the deposited data

How the results depend on the processing

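Over 20 alternatives and 8 members, 141 of 160 log2 fold changes kept direction and side of the threshold in PSCI against control, 145 in taVNS against PSCI and 151 in taVNS against control. DESeq2 called 2294 genes in PSCI against control and the 2-group fit 806 (edgeR on all libraries 1461); single omissions gave 548 to 2255. In taVNS against PSCI (854) DESeq2 called 1542, limma-voom 480, the 2-group fit 250, the fit without PSCI replicate 2 and taVNS replicate 3 361, and limma on log2(RPKM + 0.1) 502, or 440 with no filter; single omissions gave 172 to 1707. In taVNS against control (0) DESeq2 called 10, the fit without both those libraries 1, limma on log2(RPKM + 0.1) 1 and without filter 1, and single omissions 0 to 1. Members called in PSCI against control (1) numbered 0 with limma-voom, no count filter or the 2-group fit, 2 without both libraries and 0 to 2 in single omissions. The genes called also changed. Without both libraries, or without PSCI replicate 2 alone, Jun and Junb were called lower and Fosl1 was not called. Without PSCI replicate 3 Fosb was called lower and Fosl1 was not called. DESeq2 called 1 in each taVNS comparison (0), and single omissions 0 to 2 against PSCI and 0 against control. Of 9 correlations between same-number libraries, each group centred on its mean, 2 exceeded 0.1 (-0.47 to 0.26). Libraries of unlike number were not compared in this way, so these values cannot show whether replicate numbers pair the rats. With the replicate block 1084 genes were called in PSCI against control and 518 in taVNS against PSCI, 0 members in PSCI against control, and Fosl1 had an adjusted p of 0.0645. Directions reversed for Fosb in taVNS against PSCI with limma-voom (0.20), the block (0.0023), and limma on RPKM + 0.1 (0.19), + 1 (0.030) and no filter (0.19), and for Jun in taVNS against control without both libraries (-0.027). In single omissions the PSCI against control range was -0.94 to 0.089 for Fos and -0.61 to 0.16 for Jun. In taVNS against PSCI it was -0.081 to 0.40 for Fosl2, -0.13 to 0.65 for Jun, -0.72 to 1.07 for Fosb and -0.10 to 0.058 for Jund. In taVNS against control it was -0.018 to 0.12 for Jun, -0.31 to 0.06 for Fosl2, -0.77 to 0.10 for Atf3 and -0.13 to 0.31 for Fosl1. The cause was not tested. Atf3 had 10 to 80 counts per library, the fewest over the members on average.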

Other observations

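The length that the deposited counts and RPKM imply for a gene was steady over the 9 libraries for 6 of the 8 members, where its range was 1.13% to 3.66% of its median. For Fosb it ran from 2141 to 2957 bases (35.7% of the median), and for Fosl2 from 4771 to 5905 bases (21.3%). RefSeq lists 2 transcripts for Fosb and 3 for Fosl2, and 1 or 2 for the others.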
